A study of Mus musculus with 12 samples.

Results

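The 10 genes described here code for proteins of the lipid droplet surface or of droplet formation. They are the perilipins Plin2, Plin3, Plin4 and Plin5, the CIDE proteins Cidea, Cideb and Cidec, the droplet-bound dehydrogenases Hsd17b13 and Hsd17b11, and Fitm2, which takes part in droplet formation. They were found by gene symbol or older symbol in the array files, which gave 15 probes among 55681 on the array. Of these, 13 probes rose well above background on 2 or more of the 12 arrays and entered the tests, and 12 probes, of 9 genes, did so on all 12. The genes Cideb, Cidec, Hsd17b13, Hsd17b11 and Fitm2 have 2 probes each, called upstream and downstream here by their order along the transcribed strand.

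A lipid droplet is a store of triglyceride and sterol esters inside a phospholipid monolayer. Perilipins coat it and limit the access of lipases, CIDE proteins let a small droplet pass its lipid to a larger one (Cidec, Cidea) or help load lipid onto lipoproteins in hepatocytes (Cideb), and FIT proteins act where new droplets leave the endoplasmic reticulum. Hepatocytes fill and empty droplets with feeding and fasting, and several of these genes are known targets of the fatty acid sensor PPAR alpha.

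RNA of the liver of wild-type male ICR mice, an outbred stock bought at 5 weeks of age and adapted for 1 week, was measured on 12 one-colour Agilent arrays. The groups were ATRA+DEN, DEN, ATRA, vehicle (water), G0s2 siRNA and control siRNA, each at day 7 and at day 2, with 1 array per group. The mice drank water with 80 mg/L of diethylnitrosamine (DEN), a DNA-alkylating carcinogen of the liver, which came to about 400 µg daily, or 30 mg/L of all-trans retinoic acid (ATRA), a hormone made from vitamin A, about 150 µg daily. G0s2 siRNA, or a scrambled control, went into the bloodstream at 1.6 nmol with a lipid carrier. G0s2 is an inhibitor of the triglyceride lipase Pnpla2. The protocol places the siRNA a day ahead of DEN, but the labels of these 4 arrays name no DEN, so whether those mice drank it is not stated, nor is whether an array holds 1 animal or a pool. Of the day-7 arrays, 3 carry a title and a treatment characteristic that conflict, and titles were used here. The characteristic gives ATRA for the title DEN, DEN for the title ATRA+DEN, and ATRA+DEN for the title ATRA.

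The arrays lie on 4 slides scanned on 3 days, and no slide holds both days, so day and slide cannot be told apart. An array had 41.0% to 50.7% of its probes well above background, no probe was saturated, and the number of arrays limits the precision. A level is the log2 processed intensity minus the 75th percentile of its array, so 0 is that percentile, and levels of different probes are not on 1 scale. The siRNA target itself, G0s2, had a level of 2.04 with G0s2 siRNA against 3.22 with control siRNA at day 7, and 1.80 against 3.64 at day 2, that is 2.26-fold and 3.59-fold lower. All 6 hepatocyte markers were above background on every array, as were the fat cell marker Fabp4 and the brown fat marker Elovl3. Of the other fat cell markers, Retn was above background on 3 arrays, Cfd on 2 and Cox8b on 1, and Plin1, Adipoq, Lep and Ucp1 on none. The 4 pancreas markers were all above background on the vehicle array of day 2 alone, where their summed level was 10.9 times the 75th percentile, against 0.0841 to 0.396 on the other arrays. The summed level of 6 macrophage markers was 138 and 209 on the day-2 arrays of G0s2 siRNA and control siRNA, and 40.8 to 69.9 on the other 10. The muscle marker Acta1 was above background on the vehicle array of day 2 alone. The summed level of 3 red cell markers ran from 21.5 with DEN to 166 with G0s2 siRNA, both at day 7. In whole liver, fewer cells of a type and less RNA per cell cannot be told apart.

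**Figure D1:**
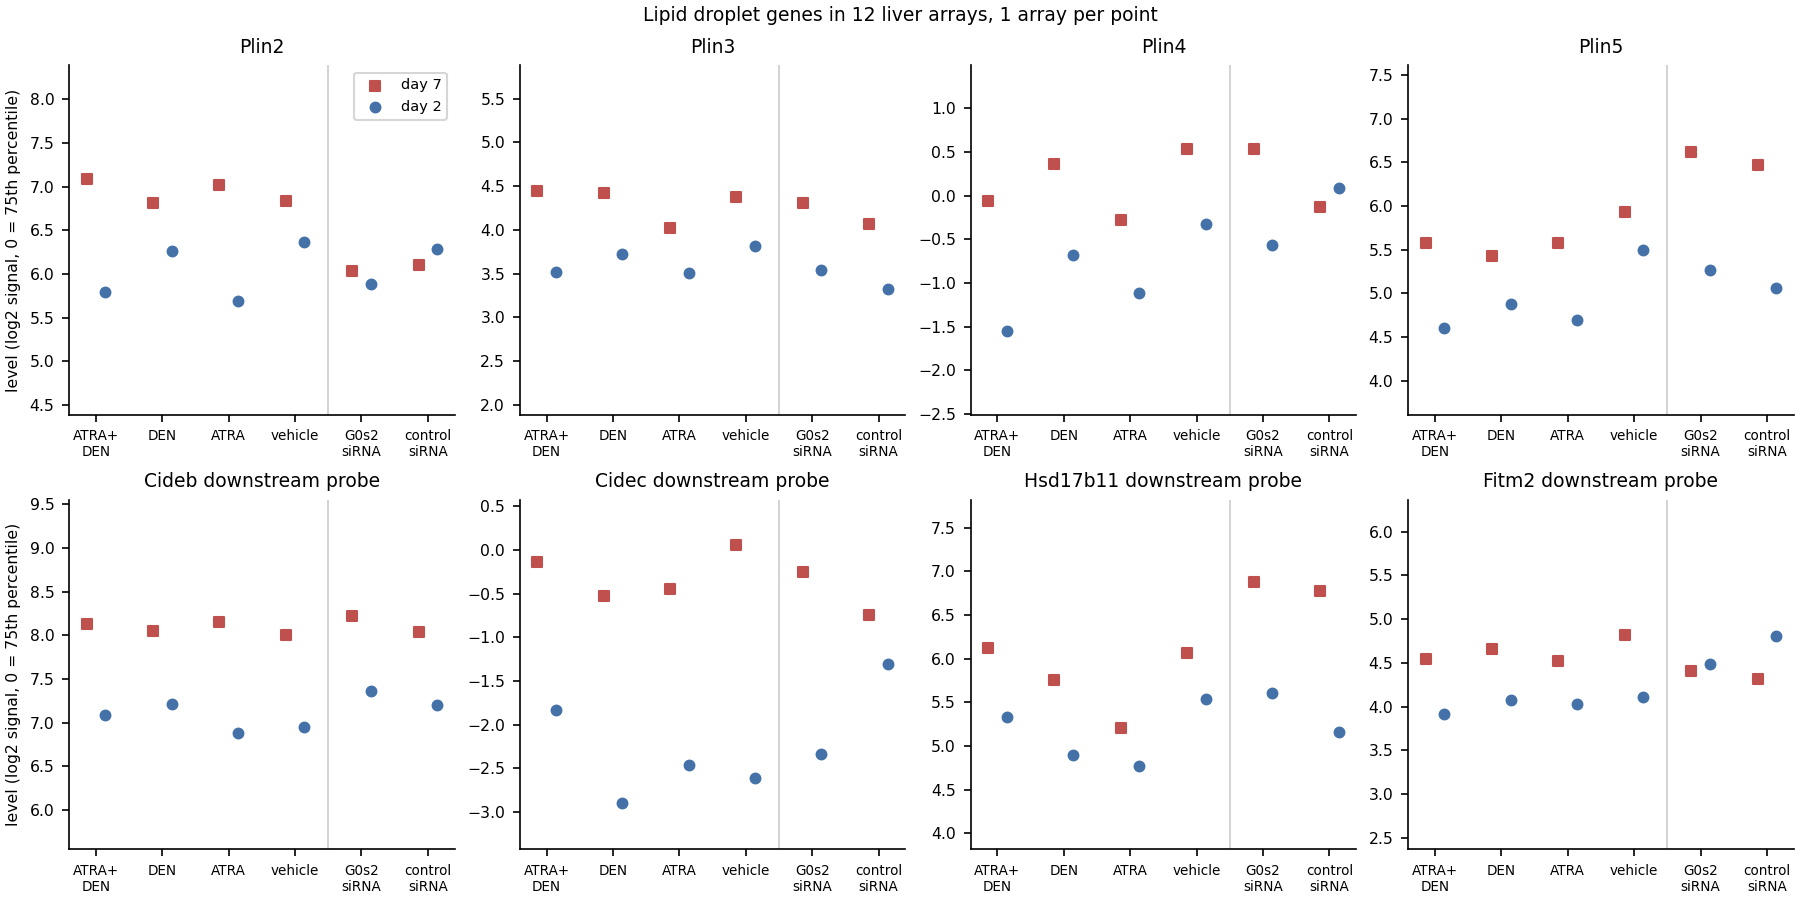
Level of 8 lipid droplet genes on each of the 12 arrays (vertical axis, log2 signal relative to the 75th percentile of the array; horizontal axis, treatment), with squares for day 7 and circles for day 2 and an axis span of 4 log2 units in every panel. Cideb, Cidec and Plin3 are higher at day 7 under every treatment, and Plin2 is nearly level between the days under both siRNAs.

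The clearest difference among these genes lay between the days. At day 7, 7 of the 13 tested probes were higher than at day 2 and 0 were lower, by limma with Benjamini-Hochberg adjustment over 29302 probes. Over all tested probes, 21.5% were higher and 22.1% lower, so much of the measured transcriptome differed between the days. Higher at day 7 in all 6 treatments were 6 of the 13 probes, against 21.2% of all tested probes. Lower in all 6 were 0 of the 13, against 19.8%. How many of all probes do not overlap between the days was not counted. The median difference of the 13 probes was 0.70 on the log2 scale, against 0.05 over all tested probes and 0.17 over the probes above background on every array. Without the vehicle pair, which holds the array with pancreas markers, 7 probes passed as well. With quantile normalization the same 7 passed, but the size of their differences changed. It was smaller for Plin3 (0.48), Plin5 (0.68), Hsd17b11 (0.66) and the Cideb probes (0.73 downstream, 0.41 upstream). It was larger for Plin4 (0.90) and the downstream Cidec probe (2.06). Of 6 hepatocyte markers, 2 were higher at day 7 and 3 lower, and of 3 brown fat markers only Elovl3, which liver also expresses, was tested and was higher, by 2.17; their part in the day difference was not tested.

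The coat genes come first. Plin2, which coats droplets in nearly all cells and is stabilised by stored lipid, is probed at chr4:86302847-86302906 (mouse build mm9, used for all probe positions). Its levels at day 7 were 7.09 with ATRA+DEN, 6.82 with DEN, 7.02 with ATRA, 6.83 with vehicle, 6.03 with G0s2 siRNA and 6.11 with control siRNA. At day 2 they were 5.79 with ATRA+DEN, 6.27 with DEN, 5.69 with ATRA, 6.37 with vehicle, 5.89 with G0s2 siRNA and 6.29 with control siRNA. All arrays without siRNA were above both siRNA arrays at day 7, and the control siRNA pair was the only pair lower at day 7 than at day 2. The mean difference of 0.60 (SE 0.22, 6 pairs) missed the threshold, with an adjusted p of 0.0636 in limma. Without the control siRNA pair it was 0.76, with an adjusted p of 0.0365 in limma.

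Plin3 (chr17:56418429-56418488), a perilipin that moves from the cytosol onto young droplets, had a lowest, median and highest level of 4.02, 4.34 and 4.44 over the 6 arrays of day 7, against 3.32, 3.53 and 3.81 at day 2. The days did not overlap. How many of all probes do the same was not counted, which also applies to the Cideb and Cidec probes below. The difference was 0.70 (SE 0.10), positive in 6 of 6 treatments, with an adjusted p of 0.00234 in limma.

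Plin4 and Plin5 are close neighbours on chromosome 17, with probes at chr17:56240055-56240114 and chr17:56251025-56251084. Plin5 tethers droplets to mitochondria in tissues that burn fat, and Plin4, best known from fat cells, carries long repeats that bind the droplet surface. Plin4 levels at day 7 were -0.06 with ATRA+DEN, 0.36 with DEN, -0.27 with ATRA, 0.53 with vehicle, 0.54 with G0s2 siRNA and -0.13 with control siRNA. At day 2 they were -1.55 with ATRA+DEN, -0.67 with DEN, -1.12 with ATRA, -0.32 with vehicle, -0.57 with G0s2 siRNA and 0.09 with control siRNA. Plin4 was higher at day 7 in 5 of 6 treatments, with control siRNA as the exception, by 0.85 (SE 0.21, adjusted p = 0.0168 in limma). With slide as a random block the Plin4 call was lost (adjusted p = 0.108 in limma).

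Plin5 levels at day 7 were 5.58 with ATRA+DEN, 5.42 with DEN, 5.57 with ATRA, 5.93 with vehicle, 6.62 with G0s2 siRNA and 6.47 with control siRNA. At day 2 they were 4.60 with ATRA+DEN, 4.88 with DEN, 4.69 with ATRA, 5.50 with vehicle, 5.27 with G0s2 siRNA and 5.06 with control siRNA. Both siRNA arrays were the highest of day 7, the reverse of their place for Plin2, and vehicle was the highest of day 2. The day difference was 0.93 (SE 0.16), positive in 6 of 6 treatments, with an adjusted p of 0.00432 in limma.

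The promoters of Plin4 and Plin5 are shown because both neighbours were higher at day 7 and both hold the letters TATAA shortly before the start. A link between these letters and the day difference was not tested. The windows run from 250 bases before to 50 after the start, from RefSeq on build GRCm38.p6, minus strand, with TATAA in capitals, at chr17:56109733-56110032 (TATAA at -32) and chr17:56117499-56117798 (TATAA at -27).
Plin4 promoter: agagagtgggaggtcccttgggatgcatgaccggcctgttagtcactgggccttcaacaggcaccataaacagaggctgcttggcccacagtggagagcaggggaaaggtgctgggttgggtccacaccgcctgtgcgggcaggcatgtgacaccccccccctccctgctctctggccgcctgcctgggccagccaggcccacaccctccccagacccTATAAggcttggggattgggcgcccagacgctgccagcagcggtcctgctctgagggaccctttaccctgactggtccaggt
Plin5 promoter: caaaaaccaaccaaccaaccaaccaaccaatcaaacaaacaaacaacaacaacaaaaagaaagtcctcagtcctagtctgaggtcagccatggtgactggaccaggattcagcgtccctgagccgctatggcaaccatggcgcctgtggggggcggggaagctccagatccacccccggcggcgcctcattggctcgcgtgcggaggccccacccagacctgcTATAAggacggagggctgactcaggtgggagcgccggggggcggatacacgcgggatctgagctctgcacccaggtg

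TATAA on either strand was in 24.9% of 32851 promoters of this length, and in 3 of the 11 listed promoters of 9 of the genes (Cideb, Plin4 and Plin5). The nuclear receptor half-site letters AGGTCA were in 16.3% of all promoters and in those of Hsd17b13, Plin2 and Plin5. A direct repeat of these letters with 1 base between, the kind of element PPAR alpha binds, was in 0.0396% of all promoters and in 0 of these. AGTTCA, a letter pattern of retinoic acid receptor half-sites, was in 14% of all promoters and in those of Cideb and Hsd17b11. These are matches of letters in a short window on either strand, not sites of binding.

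Among the CIDE genes, Cideb is the hepatocyte member, and its downstream probe had the smallest root mean square spread around the day means of the 12 probes, 0.13. This probe (chr14:56372942-56373001) had a lowest, median and highest level of 8.0, 8.09 and 8.22 at day 7, against 6.89, 7.14 and 7.37 at day 2. Its upstream probe (chr14:56373658-56373717) had 4.45, 4.56 and 5.11 at day 7, against 3.71, 4.11 and 4.33 at day 2. Neither probe overlapped between the days. The differences were 0.98 (SE 0.11, adjusted p = 0.000908 in limma) and 0.65 (SE 0.11, adjusted p = 0.0042 in limma), each positive in 6 of 6 treatments.

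Cidec, which drives droplet growth in fat cells and is known to rise in fatty mouse liver, showed the largest day difference of the 13 probes. Its downstream probe (chr6:113374630-113374689) read -0.14 with ATRA+DEN, -0.53 with DEN, -0.45 with ATRA, 0.06 with vehicle, -0.25 with G0s2 siRNA and -0.74 with control siRNA at day 7. At day 2 it read -1.83 with ATRA+DEN, -2.90 with DEN, -2.46 with ATRA, -2.61 with vehicle, -2.33 with G0s2 siRNA and -1.30 with control siRNA. The days did not overlap, and control siRNA held the highest level of day 2 and the lowest of day 7. The difference was 1.90 (SE 0.26), or 3.72-fold, with an adjusted p of 0.00202 in limma. After normexp background correction it was 0.93 (SE 0.12), with an adjusted p of 0.000662 in limma. The upstream Cidec probe (chr6:113378116-113378175) was above background on 3 of 12 arrays, vehicle and G0s2 siRNA of day 2 and control siRNA of day 7. Its 12 levels lay between -5.11 and -3.07, and its day difference was -0.37 (SE 0.36, adjusted p = 0.44 in limma). Without the control siRNA pair that difference was -0.77 (SE 0.17, adjusted p = 0.0171 in limma), opposite in sign to the downstream probe.

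Cidea, a gene of brown fat that fatty liver can also express, was above background on the ATRA array of day 2 only (chr18:67527351-67527410), at a level of -3.23, and did not enter the main tests. Its levels on the other arrays, from -5.66 to -3.80, were not well above background. With no filter on dim probes its day difference was -0.91, with an adjusted p of 0.0414 in limma, between readings not well above background on all arrays but 1.

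Hsd17b11, a dehydrogenase close in sequence to Hsd17b13, was measured by its downstream probe (chr5:104419127-104419186). Its levels at day 7 were 6.12 with ATRA+DEN, 5.76 with DEN, 5.21 with ATRA, 6.06 with vehicle, 6.88 with G0s2 siRNA and 6.78 with control siRNA. At day 2 they were 5.33 with ATRA+DEN, 4.90 with DEN, 4.77 with ATRA, 5.54 with vehicle, 5.61 with G0s2 siRNA and 5.16 with control siRNA. The siRNA arrays were again the highest of day 7, and the difference between the days was 0.92 (SE 0.18), positive in 6 of 6 treatments, with an adjusted p of 0.00617 in limma. The upstream probe (chr5:104430797-104430856) was above background on the G0s2 siRNA array of day 2 only, at -3.45, and did not enter the main tests.

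Fitm2, needed to keep new droplets budding toward the cytosol, had the smallest range over the 12 arrays, 0.90 for its downstream probe. That probe (chr2:163292132-163292191) had a lowest, median and highest level of 4.32, 4.53 and 4.82 at day 7, against 3.92, 4.09 and 4.81 at day 2. Its upstream probe (chr2:163294444-163294503) had -1.66, -1.12 and -0.95 at day 7, against -2.01, -1.64 and -1.09 at day 2. Both probes were higher at day 7 in 4 of 6 treatments and lower under both siRNAs. The differences of 0.31 (95% interval -0.13 to 0.74) and 0.29 (-0.23 to 0.82) did not pass.

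**Figure D2:**
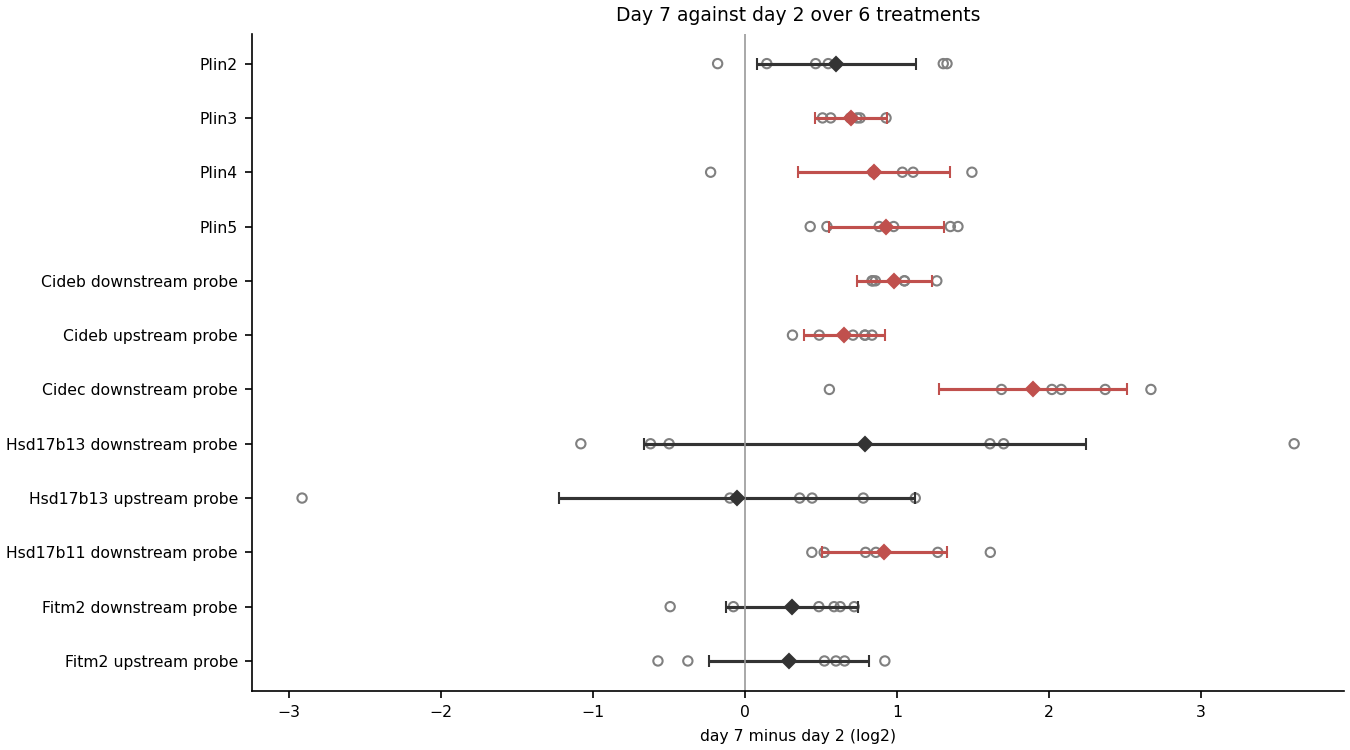
Day 7 minus day 2 (horizontal axis, log2) for the 12 probes above background on every array; open circles are the 6 treatments, diamonds the mean with its 95% interval from limma, in red where the adjusted p was under 0.05. The 7 red probes lie between 0.65 and 1.90, and the Hsd17b13 probes have the widest intervals.

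The pathway around these genes was read from lists, beside 21.5% of all tested probes higher at day 7 and 22.1% lower. Of 11 tested genes for other droplet proteins, 5 were higher at day 7 and 1 lower: Fitm1 (1.23, SE 0.23), Hilpda, an inhibitor of lipolysis (0.88, SE 0.21), and Rab18, a droplet GTPase (0.64, SE 0.12), were among the higher, and the acyl-CoA synthetase Acsl3 (-0.71, SE 0.22) was the lower. Of 5 lipolysis genes, 3 were higher and 0 lower: the lipase Pnpla2 (0.86, SE 0.13), its activator Abhd5 (1.00, SE 0.24) and Lipe (0.48, SE 0.14). Of 10 genes of triglyceride synthesis, 5 were higher and 0 lower, with Lpin1, a phosphatidate phosphatase, at 1.89 (SE 0.36), Lpin3 at 0.96 (SE 0.16), and the last-step enzymes Dgat1 at 0.75 (SE 0.13) and Dgat2 at 0.63 (SE 0.12). Of 6 genes of triglyceride secretion, 0 were higher and 1 lower, Apob, the protein backbone of secreted lipoproteins (-1.36, SE 0.17). Of 10 lipogenesis genes, 0 were higher and 0 lower. The median differences of these 5 lists were 0.47, 0.48, 0.46, 0.05 and -0.46, beside 0.05 over all tested probes. Each named gene had an adjusted p between 0.00156 and 0.0374 in limma.

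For DEN, the mean over 4 pairs of arrays showed no change in any of these genes that passed the test. By limma with adjustment over all probes, 0 of 13 probes were higher and 0 lower, against 0% of the 29302 probes in each direction. At an unadjusted p under 0.05, 1 of 13 was higher, against 5.31% of all probes, and 0 were lower, against 6.28%. Their median difference was 0.02, against -0.02 over all probes. Plin2 differed by 0.02 (95% interval -0.24 to 0.27). With ATRA, Plin5 differed by 0.00 at day 7 and -0.09 at day 2, against -0.50 and -0.61 where ATRA was not given. The mean for Plin5 was -0.30 (SE 0.14, adjusted p = 0.464 in limma), and -0.20 without the day-2 pair that holds vehicle.

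Hsd17b13, a hepatocyte dehydrogenase that sits on droplets, is the exception in spread. The range of its downstream probe over the 12 arrays was 5.60 and that of its upstream probe 5.45, against a median range of 1.17 over 20438 probes above background on every array. Only 31 and 35 of those probes ranged more widely, 0.152% and 0.171%. Both probes lie on the minus strand with 8031 bases between them. Their sequences are shown because the probes disagree. The upstream probe (chr5:104392792-104392851) reads as an open frame of 19 codons from its first base that ends in a stop codon, in capitals. Whether this is the frame of the protein was not checked. The downstream one is given by its central 30 bases (chr5:104384716-104384745).
Hsd17b13 upstream probe: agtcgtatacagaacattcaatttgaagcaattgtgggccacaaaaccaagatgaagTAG
Hsd17b13 downstream probe, central 30 bases: atatgagtatctgtgatggtttgtatatgc

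The downstream Hsd17b13 probe read 1.22 with ATRA+DEN, 2.47 with DEN, -2.81 with ATRA, -2.64 with vehicle, 2.63 with G0s2 siRNA and -2.97 with control siRNA at day 7. At day 2 it read -2.39 with ATRA+DEN, 0.76 with DEN, -1.74 with ATRA, -2.02 with vehicle, 1.02 with G0s2 siRNA and -2.47 with control siRNA. No array lay between -1.74 and 0.76. The arrays above that gap were DEN and G0s2 siRNA at both days and ATRA+DEN at day 7. The DEN difference at day 7 was 4.04 with ATRA and 5.10 without, and at day 2 it was -0.65 with ATRA and 2.78 without. The mean of 2.82 (95% interval 0.54 to 5.09) was higher in 3 of 4 pairs and did not pass, with an adjusted p of 0.37 in limma (0.227 to 0.997 over the settings tried). With day-7 groups taken from the characteristic it was 0.18. The G0s2 siRNA difference was 5.60 at day 7 and 3.49 at day 2. Its mean of 4.55 (95% interval 1.32 to 7.77) did not pass either, with an adjusted p of 0.708 in limma (0.549 to 1.00 over the settings tried).

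The upstream Hsd17b13 probe read 4.71 with ATRA+DEN, 0.75 with DEN, 4.66 with ATRA, 5.20 with vehicle, 5.61 with G0s2 siRNA and 6.20 with control siRNA at day 7. At day 2 it read 4.81 with ATRA+DEN, 3.66 with DEN, 4.30 with ATRA, 4.76 with vehicle, 4.49 with G0s2 siRNA and 5.42 with control siRNA. The array titled DEN held the lowest level of each day, and the day-7 value stood far below the other 11. Of the 2 siRNAs, G0s2 siRNA had the lower level at both days, with differences of -0.59 at day 7 and -0.93 at day 2. The DEN difference was 0.05 with ATRA and -4.45 without at day 7, and 0.51 with ATRA and -1.10 without at day 2. Its mean of -1.24 (95% interval -3.18 to 0.69) did not pass, and it was -0.18 once DEN and vehicle of day 7 were left out.

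The surroundings of Hsd17b13 were looked at after its values were seen. Within 150 kb on either side of its probes, 8 probes of 6 genes were above background on every array, counting the 2 probes of Hsd17b13 itself. Hsd17b11 ranged over 2.11 by its downstream probe, Nudt9 over 0.75 and 0.68 by its 2 probes, Aff1 over 0.63 and Klhl8 over 1.13. Sparcl1, a secreted matrix protein gene 123 kb from the downstream probe (chr5:104508149-104508208), ranged over 5.35. Sparcl1 at day 7 read -1.70 with ATRA+DEN, -0.47 with DEN, 2.23 with ATRA, 2.38 with vehicle, -1.11 with G0s2 siRNA and 2.79 with control siRNA. At day 2 Sparcl1 read 1.52 with ATRA+DEN, 0.44 with DEN, 2.02 with ATRA, 1.90 with vehicle, -2.56 with G0s2 siRNA and 1.14 with control siRNA. The 5 arrays with the higher downstream Hsd17b13 readings held the 5 lowest Sparcl1 levels. That split of the arrays was taken from the Hsd17b13 readings themselves. How many of all probes separate the same arrays was not counted, and a link between the 2 genes was not tested.

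**Figure D3:**
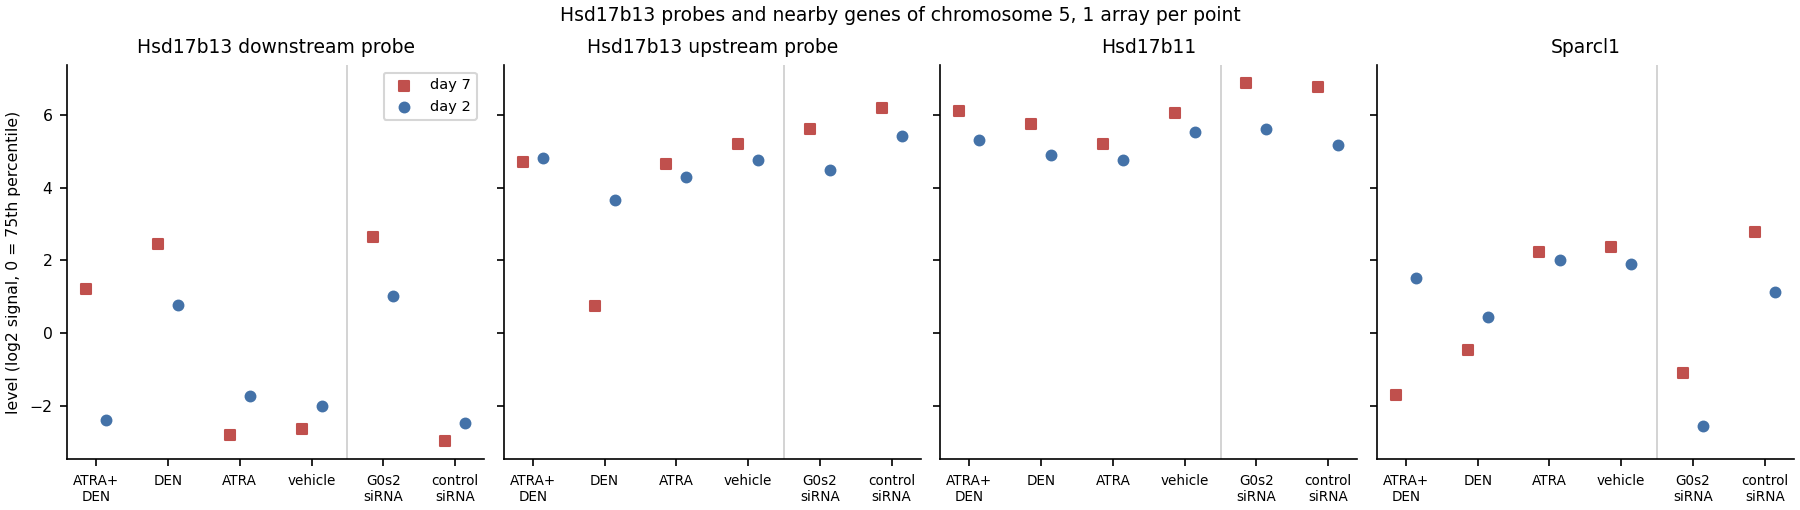
Levels of both Hsd17b13 probes, Hsd17b11 and Sparcl1 on each array (vertical axis, log2 signal relative to the 75th percentile of the array; horizontal axis, treatment; squares day 7, circles day 2). The downstream Hsd17b13 probe splits into 5 arrays between 0.76 and 2.63 and 7 between -2.97 and -1.74, and Sparcl1 is lowest on the same 5.

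For ATRA, again 0 of 13 probes passed in either direction, against 0% of all probes each way, and the median difference was -0.17, against -0.02 over all probes. At an unadjusted p under 0.05, 2 of 13 were lower (Plin4 and the dim upstream Cidec probe), against 2.76% of all probes, and 0 higher, against 3.01%. Plin4 was lower in 4 of 4 pairs, with differences of -0.42 with DEN and -0.80 without at day 7, and of -0.88 with DEN and -0.80 without at day 2. Its mean was -0.72 (95% interval -1.06 to -0.39, or 1.65-fold lower), with an unadjusted p of 0.00235 and an adjusted p of 0.802 in limma (0.526 to 0.999 over the settings tried). Without the day-2 pair that holds vehicle it was -0.70. The downstream Fitm2 probe was also lower in 4 of 4 pairs, with a mean of -0.16 (95% interval -0.44 to 0.12). The same sign in all pairs was seen lower for 3 of 13 probes, against 8.06% of all probes, and higher for 0, against 5.9%. Plin2 differed with ATRA by 0.28 with DEN and 0.18 without at day 7, and by -0.48 with DEN and -0.68 without at day 2. The upstream Hsd17b13 probe differed by 3.96 with DEN and -0.54 without at day 7, and by 1.15 with DEN and -0.46 without at day 2, with a mean of 1.03 (95% interval -1.04 to 3.09). At day 7 both arrays with ATRA lie on the same slide and both of their references on another. ATRA and slide cannot be told apart there, and the day-7 pairs are not independent of each other.

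DEN and ATRA together were set against each alone through the interaction, the DEN difference with ATRA minus that without. No probe passed in limma (0 of 13, against 0% of all probes), and at an unadjusted p under 0.05, 2 of 13 were higher, against 1.98% of all probes, and 0 lower, against 1.78%. The DEN difference of Hsd17b11 was 0.91 at day 7 and 0.56 at day 2 with ATRA, and -0.30 at day 7 and -0.64 at day 2 without. The interaction was 1.21 (SE 0.28), with an adjusted p of 1.00 in limma, and 0.29 with day-7 groups from the characteristic. The downstream Cidec probe differed by 0.31 with ATRA and -0.59 without at day 7, and by 0.64 with ATRA and -0.29 without at day 2. Its interaction was 0.91 (SE 0.27, adjusted p = 1.00 in limma). A DEN difference above 0 with ATRA and below 0 without, on both days, was shown by 4 of 13 probes, against 4.43% of all probes, and the reverse by 0, against 3.65%.

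For G0s2 siRNA, 0 of 13 probes passed in limma, against 0% of all probes in each direction, and their median difference was 0.00, against 0.06 over all probes. At an unadjusted p under 0.05, 1 of 13 was higher, the downstream Hsd17b13 probe, against 3.85% of all probes, and 0 were lower, against 2.99%. Plin2 differed by -0.08 at day 7 and -0.40 at day 2, with a mean of -0.24 (95% interval -0.60 to 0.12). Plin5 differed by 0.16 at day 7 and 0.21 at day 2, with a mean of 0.18 (95% interval -0.29 to 0.66). Plin4 and the downstream Cidec probe turned with the day: Plin4 differed by 0.67 at day 7 and -0.66 at day 2, and Cidec by 0.49 and -1.03. Macrophage marker sums were 40.8 with G0s2 siRNA against 69.9 with control siRNA at day 7, and 138 against 209 at day 2, and their part in these differences was not tested.

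**Figure D4:**
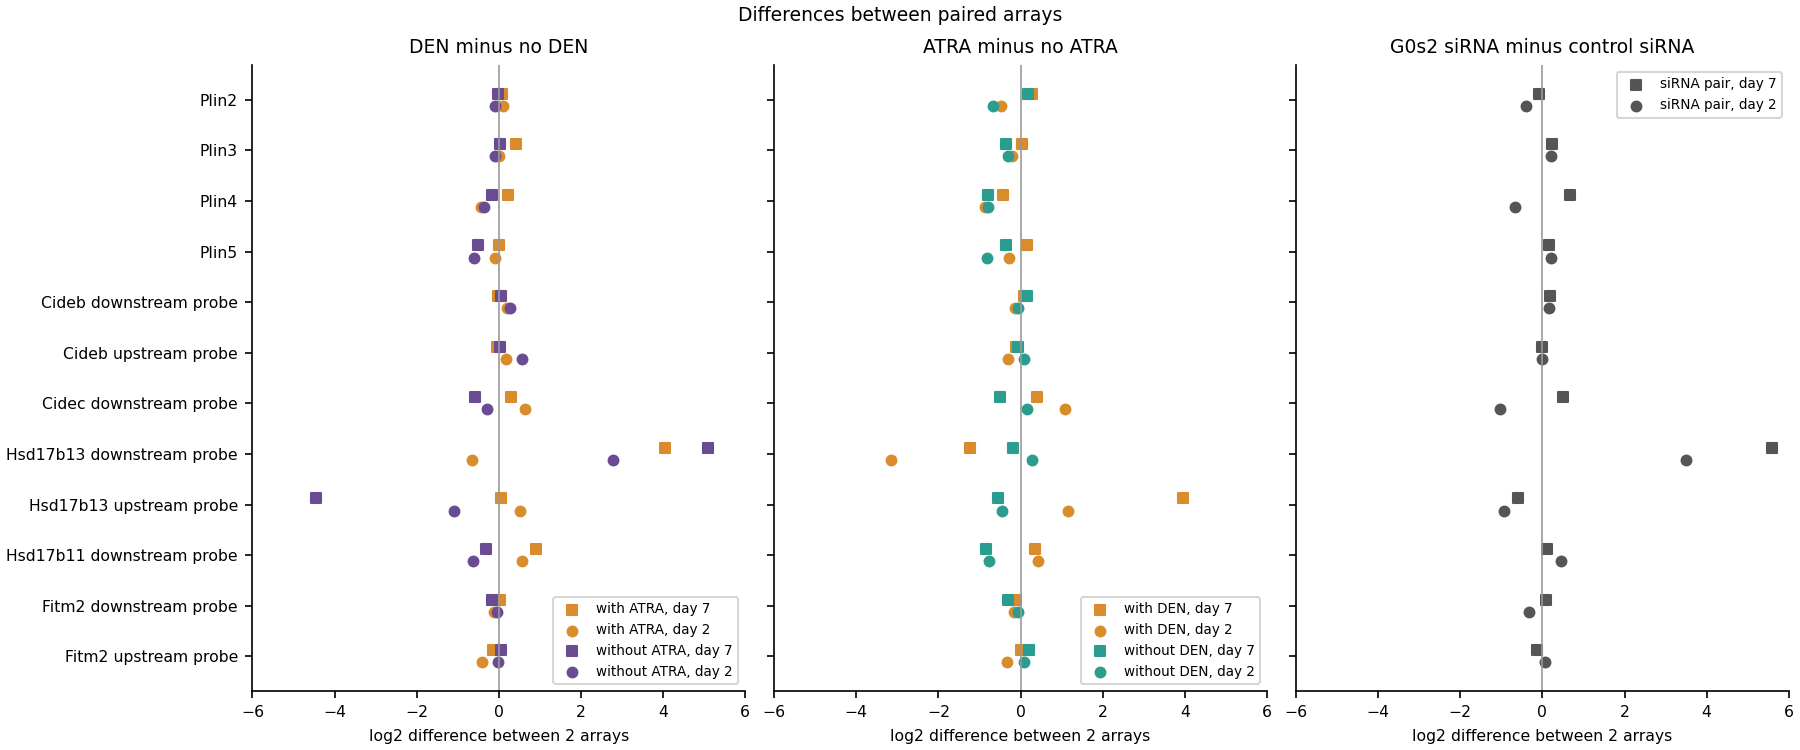
Difference between the 2 arrays of a pair (horizontal axis, log2; squares day 7, circles day 2) for the 12 probes above background on every array, by DEN (left), ATRA (middle) and G0s2 siRNA (right). Most points lie within 1 of 0, Plin4 is below 0 in all 4 ATRA pairs, and the Hsd17b13 probes reach 5.60 and -4.45.

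The genes whose levels were most alike over the 12 arrays, after each day was centred, were found by the root mean square difference among 11250 genes. Such a search always returns a nearest gene, no typical nearest distance was computed, and shared regulation was not tested. For Plin2 the nearest was Dis3l, at 0.09 against Plin2's own spread of 0.35. For Plin5 they were Ncoa4 (0.14), Slc37a4 (0.15) and Gata5 (0.15) against 0.40, and for Plin4 Zfp458 (0.22), Qdpr (0.24) and Epor (0.24) against 0.44. For the downstream Cidec probe they were Phf11d (0.22), Nfxl1 (0.23) and Casp4 (0.26) against 0.42, and for Hsd17b11 Psmd9 (0.19), Steap4 (0.20) and Pf4 (0.20) against 0.46. For the downstream Hsd17b13 probe the nearest, Sult2a7, differed by 1.27 against a spread of 2.05, a share of 0.62. The upstream Hsd17b13 probe was much the same in this, with Rdh1 at 0.79 against 1.31, a share of 0.61.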

How the data were processed

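The deposited array files hold processed intensities of Agilent Feature Extraction, background-subtracted and detrended, per the file headers, which name version 10.7.1.1; the submitters' processing notes name 9.5.1.1. The authors' deposited series table holds intensities that are quantile-normalized within each day, judged from its values, and served as an alternative. Spots of a probe were averaged after log2 transformation and the 75th percentile of each array was subtracted. Probes well above background on at least 2 of 12 arrays (29302 of 55681) entered limma (version 3.58.1, R 4.3.3). The arrays were treated as 4 DEN pairs, 2 siRNA pairs (sharing the spread with the DEN pairs), 4 ATRA pairs and 6 day pairs, each pair a block, while the interaction took slide as its block; tests were two-sided with Benjamini-Hochberg adjustment at 0.05. With 1 array per group there are no replicates, so p-values measure the spread between pairs. The 6 day pairs share slides, so they are not independent replicates of the day. The fits were tested on simulated data. Alternatives changed the normalization, background correction, dim-probe filter, probe choice, source of values, day-7 labels, slide and pairs left out.

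Every probe of the 10 genes was described; the lead probe of a gene was that with the highest mean level. In each list, up to 4 genes that passed were named, or up to 2 with the largest difference of 1 sign in every pair. Genes most alike were the 3 with the smallest root mean square difference. The genes and lists were chosen with earlier results of these data known. Exons of the array's build were not used here.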

Additional observations from a re-analysis of the deposited data

Results flagged for a closer look

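With 1 array per group, outlying arrays within a group were not searched for. A probe is listed here where every pair of one kind moved one way and every pair of the other kind the opposite way, with no minimum size. The planned rule also asked for every difference to be at 0.5 or more, and none of these met it.

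Between pairs with and without ATRA, the DEN difference turned for 4 probes: by 3.05 for the upstream Hsd17b13 probe, 1.21 for Hsd17b11, 0.91 for the downstream Cidec probe and 0.15 for Plin2. Seen the other way round, the ATRA difference with DEN minus that without was 3.05 for the upstream Hsd17b13 probe and 1.21 for Hsd17b11. These are the same contrasts. It was -0.30 for the upstream Fitm2 probe, whose ATRA difference with DEN at day 7 was only -0.000123. The interaction tested these differences, and each had an adjusted p of 1.00 in limma. The upstream Hsd17b13 value rests mainly on the day-7 array titled DEN, whose label is in conflict. It lay between 2.88 and 3.05 over the 8 settings run, among them the day-7 groups by the characteristic.

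Between the days, the ATRA difference at day 7 minus that at day 2 was 0.81 for Plin2 and 0.21 for the downstream Cideb probe. These differences were not tested. How many of all probes turn in their ATRA difference, between the days or with and without DEN, was not counted. The day-7 ATRA pairs span slides, and ATRA and slide cannot be told apart there.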

How the results depend on the processing

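The pairs of arrays were blocks of the DEN, ATRA, siRNA and day fits; with 1 array per group there were no numbered replicates to pair. For DEN, ATRA, G0s2 siRNA and the interaction, 0 of the droplet probes passed under any setting run. Over all probes, normexp background correction gave 17 calls for DEN and 4 for G0s2 siRNA, and leaving out the day-2 siRNA pair gave 2 for G0s2 siRNA, each against 0; the cause was not tested. For the day, calls fell to 5632 with slide as a random block, against 12763, and among the droplet probes Plin4 was lost. Leaving out each pair in turn kept the 7 droplet calls, and without the control siRNA pair Plin2 (0.76) and, as lower, the upstream Cidec probe (-0.77) passed too. Plin2 also passed among probes above background on all 12 arrays, and Cidea (-0.91) with no filter on dim probes. With the day-7 characteristic, the upstream Hsd17b13 probe turned to 0.71 for DEN and -0.95 for ATRA, against -1.24 and 1.03. For G0s2 siRNA, the downstream Cideb probe turned to -0.0219 with quantile normalization and -0.0199 in the authors' deposited table, against 0.17, and the upstream Cidec probe ranged from -0.0159 without the day-2 pair to 1.98 without the day-7 pair, against 0.98 with both. Of the other values of single probes, 635 stayed on their side of the threshold, and 24 of these, uncalled and within 1 SE of 0, changed sign. A dim probe has few arrays above background, which limits the upstream Cidec values.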

Other observations

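Beyond the droplet genes, several genes of fat handling differed the same way in every pair, though none of the listed genes passed in limma for DEN, ATRA or G0s2 siRNA. With DEN, the monoglyceride lipase Mgll differed by -0.83 (SE 0.15, adjusted p = 0.237 in limma) and the lipase inhibitor G0s2 by -1.39 (SE 0.35), each lower in 4 of 4 pairs, as were 11.9% of all probes. Bscl2, seipin, which shapes young droplets, differed by 0.59 (SE 0.15) and the phosphatidate phosphatase Lpin3 by 0.55 (SE 0.14), each higher in 4 of 4 pairs, as were 9.13% of all probes. Of 10 lipogenesis genes, 9 had a negative DEN difference, with a median of -0.44 against -0.02 over all probes; the fatty acid elongase Elovl6 was at -1.14 (SE 0.29). With ATRA, the fatty acid binding protein Fabp1 differed by -0.36 (SE 0.11) and was lower in 4 of 4 pairs, as were 8.06% of all probes.

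With G0s2 siRNA, the PPAR alpha target Cyp4a10 (-1.76, SE 0.48), a fatty acid hydroxylase, was lower in 2 of 2 pairs, as were 21.2% of all probes, and the droplet-associated Mettl7b differed by 1.15 (SE 0.44) and was higher in both, as were 36% of all probes, with adjusted p-values from 0.672 to 0.708 in limma. The related hydroxylase Cyp4a14 also read lower in both pairs, but was not well above background on the G0s2 siRNA array of day 2, so no size is given. The median of the 14 PPAR genes was -0.24, against 0.06 over all probes. Between the days, the PPAR list held 3 of 14 genes higher at day 7, a share near the 21.5% of all probes, Angptl4 (1.22, SE 0.12), Cpt1a (1.03, SE 0.13) and Acadm (0.62, SE 0.12), and 1 of 14 lower, against 22.1% of all probes, Fabp1 (-0.90, SE 0.10), with adjusted p-values from 0.000695 to 0.00636 in limma.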
